A study of Danio rerio with 18 samples.

Results

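The stress response of susceptible zebrafish larvae was examined by setting 5 susceptible stressed larvae against 4 susceptible basal larvae, 9 of the 18 larvae sequenced. Larvae were chosen by their labels alone, by archetype and condition. Each library came from the whole body of 1 wild-type larva of the AB strain at 7 days post fertilization (dpf), sorted at 6 dpf by archetype. Basal larvae were taken without a stress, and stressed larvae 30 min after a stress of 5 min. The other 9 larvae, 4 resilient basal and 5 resilient stressed, share strain, age and times and differ by archetype. The sources used here do not name the stressor, the scoring of archetypes, the clutches or the hour of collection. A larva was sampled once, so effects of the stress and differences the larvae already carried cannot be told apart.

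In fish an acute stress acts first through nerves and then through the stress axis. Corticotropin-releasing hormone from the hypothalamus drives the pituitary to release hormones cut from proopiomelanocortin, and these drive cortisol release from interrenal cells. Cortisol binds the glucocorticoid receptor, which switches on targets such as fkbp5, klf9 and per1a and the enzymes of gluconeogenesis. Immediate early genes such as fosab and egr1 encode transcription factors whose mRNA is made within minutes of a stimulus.

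Raw counts summed to between 8452595 and 23801175 reads per susceptible larva, and 22038 genes were tested. Levels are CPM, the reads of a gene per fixed amount of TMM-scaled library, and a log2 fold change is stressed minus basal with its standard error (SE), also written as a log2 ratio. Of 42 defining markers listed for 17 tissues 36 were measured, and all 36 had reads in all 9 larvae. The erythrocyte markers hbba1, hbaa1 and alas2 were not analysed here. In whole-larva RNA, fewer cells of a type and less RNA per cell cannot be told apart. Susceptible basal 1 and 2 stood apart from the other larvae. On the first principal component of the 9 larvae (19.5% of the variance) basal 2 scored 63.04 and the others at most 10.64, and on the second (16.8%) basal 1 scored -57.63 and the others at least -6.287. Counts of gene lists are therefore also given without these larvae, which leaves 2 basal larvae.

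Across the transcriptome, susceptible larvae showed no gene that passed the test. Genes of the retina and of neurons and immediate early genes had the highest levels in stressed larvae relative to basal ones. The erythrocyte, heart, neutrophil and enterocyte lists had the lowest medians. Without basal 1 and 2 the median of retinal factors stayed at 0.29, and that of photoreceptor genes fell to 0.13. The AP-1 median was then 0.36, that of other immediate early genes 0.04 and that of synapse and neuron genes -0.03. Of the low lists, the erythrocyte and neutrophil medians came close to 0 without basal 1 and 2. The heart median moved from -0.40 to -0.12, and the enterocyte median from -0.28 to -0.27. In fkbp5, a target of the glucocorticoid receptor, every stressed larva lay below every basal one. With edgeR's quasi-likelihood test and Benjamini-Hochberg adjustment, 0 of 22038 genes (0%) had an adjusted p below 0.05. At an unadjusted p below 0.05 there were 1642 genes (7.45%), 741 with higher levels in stressed larvae (3.36%) and 901 with lower levels (4.09%). Leaving out basal 1 and 2 gave 564 (2.506%) and 604 (2.684%) of 22504 genes. DESeq2, run on the same counts, called 46 of 25222 genes (0.182%), 20 higher and 26 lower, and limma voom with sample quality weights called 0. Of these 46 genes, 41 had groups that did not overlap. Over all genes tested, 601 had no overlap between the groups (2.73%), 286 of them with every stressed larva higher (1.3%) and 315 with every stressed larva lower (1.43%). Without susceptible stressed 2 edgeR called 13 genes, all lower, without basal 1 it called pim2 alone, and without resilient stressed 4, which shares the estimate of the spread, rx1 alone. All fold changes below that are not stated as called by a named test therefore describe these larvae only.

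**Figure D1:**
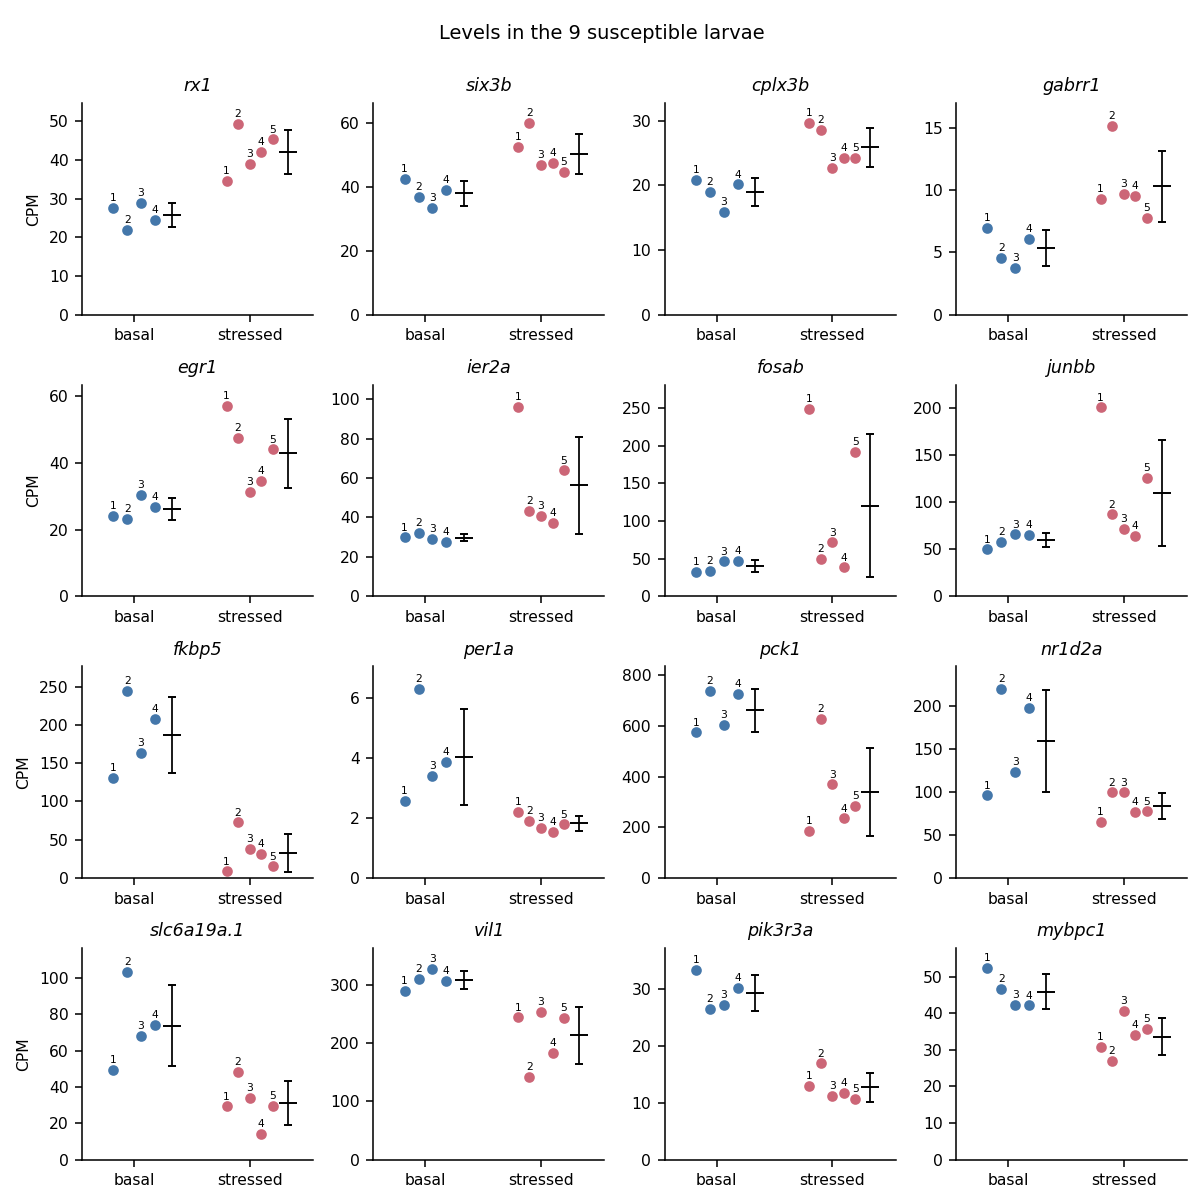
Levels in CPM (vertical axes, from 0) of 16 genes in the 4 susceptible basal larvae (blue) and the 5 susceptible stressed larvae (red); digits are larva numbers, and black marks give the mean with SD. rx1, six3b, cplx3b and gabrr1 lay higher and fkbp5, per1a, slc6a19a.1 and pik3r3a lower in every stressed larva, while fosab was highest in stressed 1 and 5.

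Among the lists, the retinal factors gave the clearest pattern. The lists were chosen with earlier results of these data known, so their shares are a description and no independent test. Of 28 transcription factor genes of the retina and eye field, 26 had a positive fold change, beside 49% of all genes. Of the 28, 12 (42.9%) had an unadjusted p below 0.05 with stressed larvae higher, beside 3.36% of all genes. None had one with stressed larvae lower. In 8 of them every stressed larva lay above every basal larva, beside 1.3% of all genes. The median log2 fold change was 0.29, beside -0.0041 over all genes. With basal 1 and 2 left out there were 12 such genes and the median was 0.29. DESeq2 called 5 of the list, all higher, among them rx1, six3b, isl1 and pax6a.

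rx1 encodes a retinal homeobox factor that marks the eye field and later photoreceptors. It stood at 27.6, 22.01, 28.93 and 24.5 CPM in basal 1 to 4 and at 34.7, 49.4, 39.1, 42.1 and 45.4 CPM in stressed 1 to 5 (log2 fold change 0.71, SE 0.13, edgeR adjusted p = 0.216; DESeq2 adjusted p = 0.00278). The lowest stressed larva lay above the highest basal one. six3b, which acts in eye-field and forebrain specification, stood at 42.7, 36.9, 33.4 and 39.2 CPM in basal and at 52.6, 60.2, 46.9, 47.5 and 44.9 CPM in stressed larvae (log2 fold change 0.40, SE 0.09, edgeR adjusted p = 0.25; DESeq2 adjusted p = 0.0271). Its groups were separate too. The same order held for pax6a, the general eye and brain patterning factor (66.7 to 81.4 against 86.5 to 112 CPM, log2 fold change 0.40, SE 0.09). It also held for isl1, a LIM-homeobox gene of ganglion, amacrine and bipolar cells (58.8 to 68.6 against 71.2 to 87.7 CPM, log2 fold change 0.29, SE 0.07). isl1 was also on the endocrine pancreas list, so it does not mark the retina alone. crx, the cone-rod homeobox gene, overlapped in a narrow zone, since basal 4 reached 55.1 CPM while stressed 3 had 54.9 CPM (log2 fold change 0.43, SE 0.10, edgeR adjusted p = 0.276).

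Several genes on none of the lists, chosen by their small p or by a call of DESeq2, are also known from the retina, though not from the retina alone. They were picked from the same comparison and sorted by tissue afterwards, so they are no separate support for the retinal list. Others chosen in the same way, such as pim2 and zdhhc8a, are given further below among signalling genes. prdm13, which in mouse is needed for amacrine cells, had 14.04, 13.8, 10.4 and 16.1 CPM in basal and 19.9, 23.5, 18.9, 22.6 and 16.8 CPM in stressed larvae (log2 fold change 0.57, SE 0.13, edgeR adjusted p = 0.254; DESeq2 adjusted p = 0.032). gabrr1, a subunit of the ionotropic GABA receptor of retinal bipolar cells, had 6.99, 4.54, 3.75 and 6.11 CPM in basal and 9.34, 15.2, 9.71, 9.56 and 7.77 CPM in stressed larvae (log2 fold change 0.93, SE 0.21, edgeR adjusted p = 0.25; DESeq2 adjusted p = 0.0254). Stressed 2 was far above the other stressed larvae, and all of these were still above the basal ones. cplx3b encodes a complexin of ribbon synapses and ranged over 15.9 to 20.9 CPM in basal and 22.7 to 29.6 CPM in stressed larvae (log2 fold change 0.44, SE 0.09, edgeR adjusted p = 0.25; DESeq2 adjusted p = 0.0167). tfap2a, an AP-2 factor of neural crest, epidermis and amacrine cells, ranged over 145 to 163 and 179 to 204 CPM, a small but separate step (log2 fold change 0.31, SE 0.06, edgeR adjusted p = 0.25; DESeq2 adjusted p = 0.00402). bhlhe22, a factor of amacrine and bipolar interneurons in mouse, overlapped by 1 larva (31.5 to 37.8 against 37.2 to 48.7 CPM, log2 fold change 0.35, SE 0.08).

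**Figure D2:**
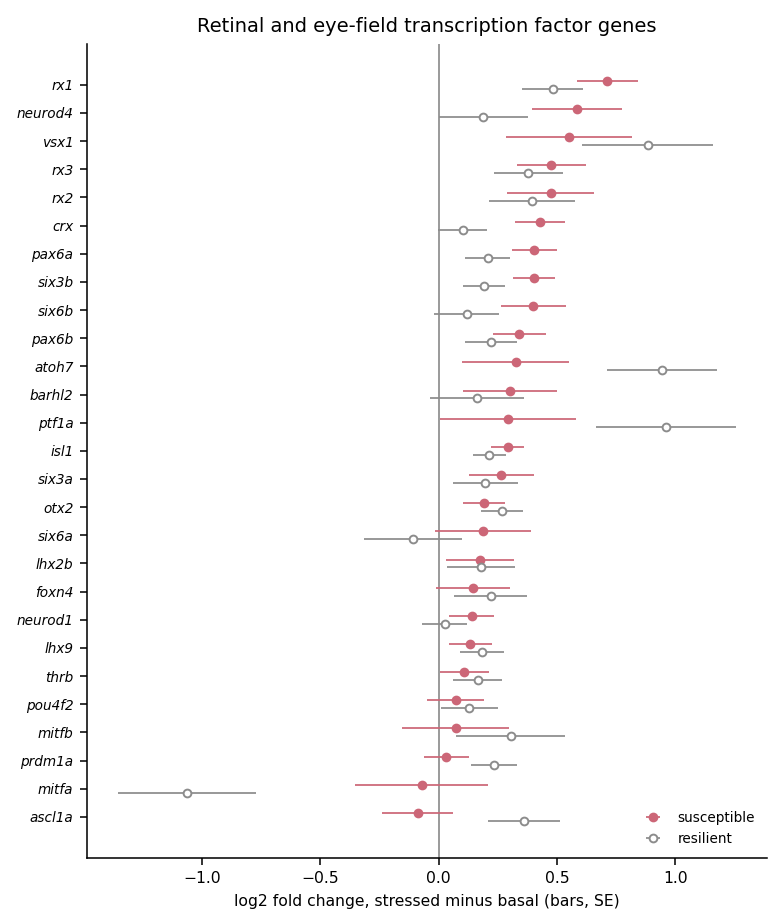
Log2 fold changes (horizontal axis, stressed minus basal, bars SE) of 27 of the 28 tested retinal and eye-field transcription factor genes in susceptible (red) and resilient larvae (open grey). In susceptible larvae 25 of the 27 shown lie above 0, led by rx1 at 0.71.

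Mature photoreceptor genes and neuronal genes leaned the same way with smaller medians. Of 58 photoreceptor genes 50 were positive (median 0.25). Of the 58, 13 (22.4%) had an unadjusted p below 0.05, all with stressed larvae higher, beside 3.36% of all genes. With basal 3 and 4 alone the count was 6 and the median 0.13. Of the photoreceptor markers, rho averaged 950 CPM in basal and 1068 CPM in stressed larvae, and gnat2, the cone transducin gene, 400.2 and 528 CPM. prph2a, a structural protein of outer segment discs, ranged over 119 to 155 and 149 to 206 CPM, so that basal 4 exceeded stressed 3 (log2 fold change 0.32, SE 0.10). saga, a rod arrestin gene, and cnga3a, the cone cyclic-nucleotide-gated channel gene, had log2 ratios of 0.35 (SE 0.11) and 0.45 (SE 0.15). On the list of photoreceptor genes basal 2 had the lowest level, at -0.46 in mean centred log2 CPM, against -0.16 to 0.11 in the other basal and -0.10 to 0.28 in the stressed larvae.

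Of 65 synapse and neuron genes 58 were positive. Of the 65, 12 (18.5%) had an unadjusted p below 0.05 with stressed larvae higher, beside 3.36% of all genes, and 1 with stressed larvae lower. Their median of 0.09 turned to -0.03 without basal 1 and 2, with 4 higher and 2 lower. The list stood at -0.16, -0.12, 0.04 and 0.03 in basal 1 to 4 and at 0.11, 0.05, 0.03, -0.05 and 0.08 in stressed 1 to 5. snap25b, the synaptic vesicle fusion protein SNAP-25, was separate between the groups (179.5 to 205 against 206 to 249.5 CPM, log2 fold change 0.25, SE 0.07, edgeR adjusted p = 0.35). calb2b (calretinin) and gad1b (the GABA-synthesising decarboxylase) overlapped between groups, with log2 ratios of 0.31 (SE 0.10) and 0.24 (SE 0.09). Glia and myelin genes (1 of 34 higher, median 0.05) and lens genes (1 of 42 lower, median -0.04) had medians closer to 0. With basal 3 and 4 alone, 1 glial gene was higher (median 0.01) and 4 lens genes were lower (median -0.23). The part that the share of neural tissue in a larva had in these levels was not tested.

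**Figure D3:**
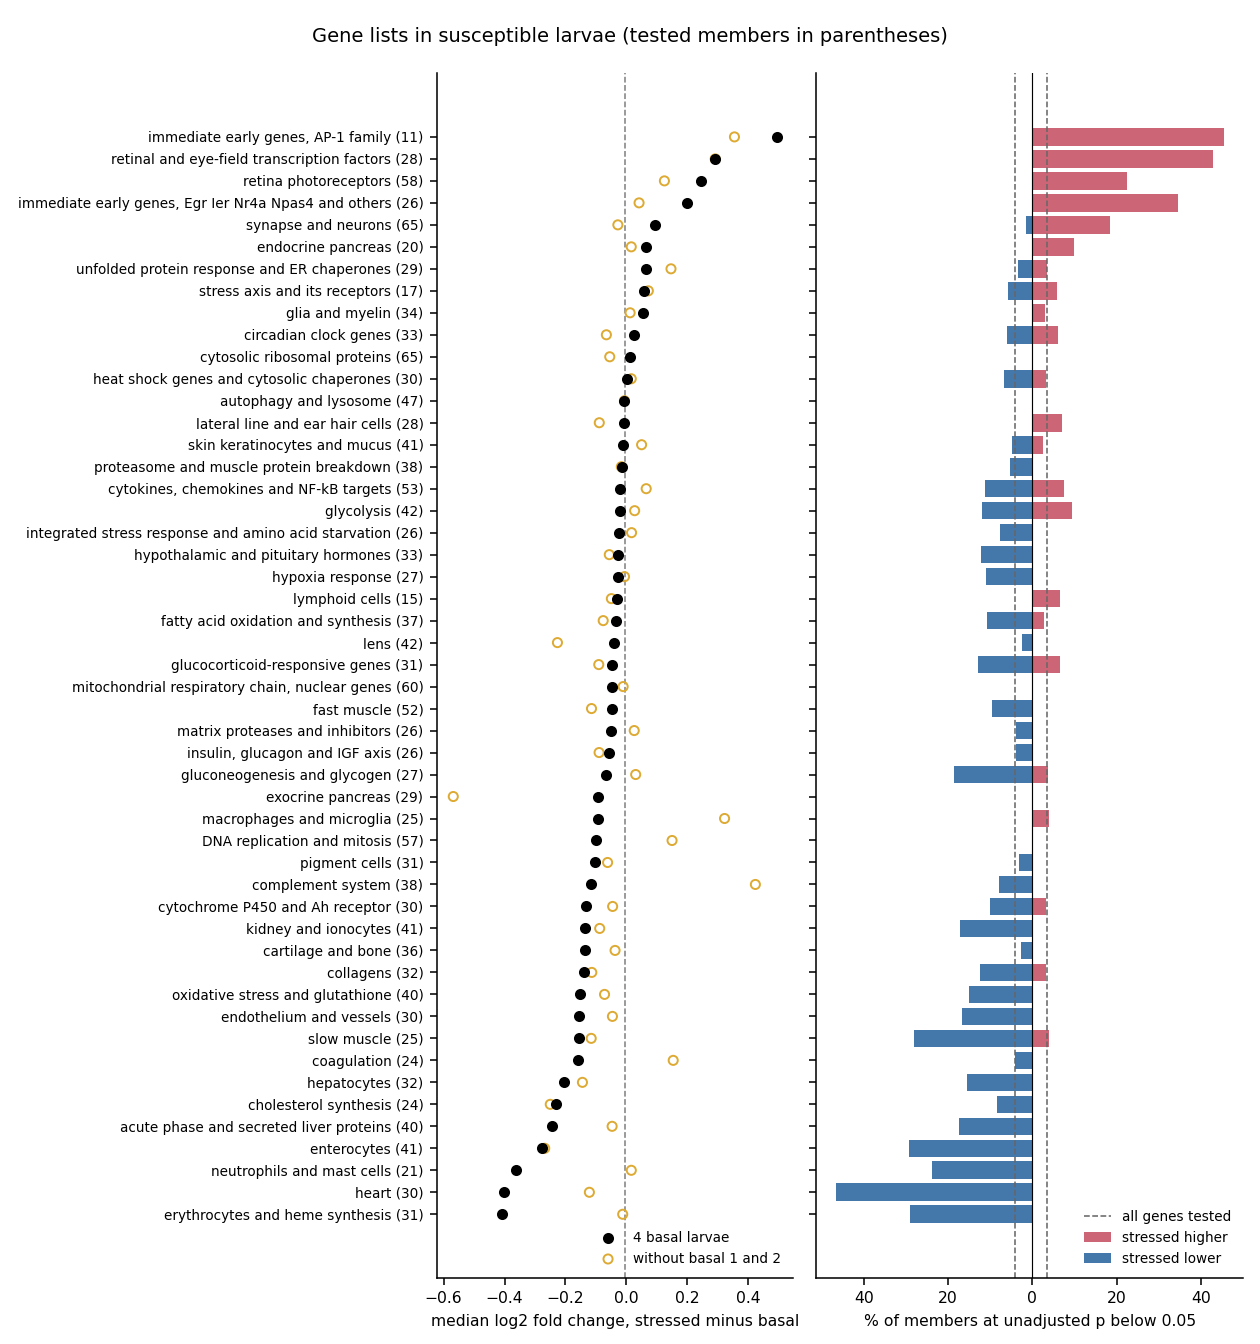
Gene lists in susceptible larvae: left, the median log2 fold change of each list with all 4 basal larvae (black) and without basal 1 and 2 (open); right, the percentage of tested members at an unadjusted p below 0.05 with stressed larvae higher (red) or lower (blue), dashed lines giving 3.36% and 4.09% of all genes. Immediate early and retinal lists lie at the top and erythrocyte, heart and enterocyte lists at the bottom; open and black symbols lie apart for the complement and exocrine pancreas lists.

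Immediate early genes stood high in some stressed larvae and near the basal level in others. Of 11 AP-1 genes (the fos and jun families and atf3), 5 (45.5%) had an unadjusted p below 0.05 with stressed larvae higher (median 0.49). Over all genes 3.36% did, and no AP-1 gene had groups without overlap. Against basal 3 and 4 alone the count was 1 and the median 0.36. fosab, the zebrafish c-Fos gene, stood at 32.1, 33.4, 46.2 and 46.8 CPM in basal and at 249, 50.02, 71.6, 38.2 and 192 CPM in stressed larvae (log2 fold change 1.61, SE 0.47, edgeR adjusted p = 0.409). Stressed 1 and 5 were far above every basal larva, whereas stressed 2 and 4 were close to the basal range. fosb, its paralog, stood at 6.599, 7.08, 8.11 and 9.36 CPM in basal and 29.6, 7.31, 12.5, 8.603 and 62.2 CPM in stressed larvae (log2 fold change 1.64, SE 0.61). junbb stood at 49.8, 57.99, 65.6 and 65.4 CPM and 200.3, 86.8, 71.8, 63.8 and 126 CPM (log2 fold change 0.88, SE 0.29). For both, stressed 1 and 5 were again the highest. junba (log2 fold change 0.87, SE 0.28) and atf3, a stress-induced member of the ATF family (log2 fold change 0.49, SE 0.20), overlapped between groups, and jun itself had a log2 fold change of 0.08 (SE 0.08).

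Among 26 other immediate early genes, 9 (34.6%) had an unadjusted p below 0.05 with stressed larvae higher and 0 with stressed larvae lower (median 0.20). Over all genes 3.36% were higher. Without basal 1 and 2 there were 3 of the list (median 0.04). DESeq2 called egr1 and ier2a of this list higher, and both had separate groups. egr1, a zinc-finger factor induced by neural activity and growth signals, stood at 24.1, 23.2, 30.5 and 26.7 CPM in basal and 57.1, 47.4, 31.3, 34.6 and 44.1 CPM in stressed larvae (log2 fold change 0.72, SE 0.18, edgeR adjusted p = 0.301; DESeq2 adjusted p = 0.0422). The table holds numbered copies of egr1, nr4a1 and the retinal gene crx, so their counts are uncertain. ier2a, an immediate early response gene, stood at 29.9, 31.97, 29.2 and 27.5 CPM in basal and 96.1, 43.4, 40.6, 37.3 and 63.9 CPM in stressed larvae (log2 fold change 0.93, SE 0.23, edgeR adjusted p = 0.302; DESeq2 adjusted p = 0.0254). Its basal values lay within 5 CPM of each other, while stressed 1 and 5 stood out upward. btg2, an antiproliferative early gene, was also highest in stressed 1 and 5, at 89.3 to 255 CPM in stressed against 57.1 to 111 CPM in basal larvae (log2 fold change 0.93, SE 0.28). The MAP kinase phosphatase genes dusp1 and dusp2 had log2 ratios of 0.53 (SE 0.18) and 0.47 (SE 0.15). npas4a, the neuron-specific early gene, had a log2 fold change of 0.18 (SE 0.18), and nr4a1, a nuclear receptor of the early response, one of -0.63 (SE 0.38), with overlapping groups.

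The glucocorticoid targets did not move as a block. Of 31 listed genes 2 (6.45%) had an unadjusted p below 0.05 with stressed larvae higher and 4 (12.9%) with stressed larvae lower (median -0.05). Over all genes these shares were 3.36% and 4.09%. Without basal 1 and 2 the counts were 0 and 3 (median -0.09). fkbp5 encodes a cochaperone that dampens the glucocorticoid receptor and is itself switched on by it. It stood at 130.3, 244, 164 and 208 CPM in basal and at 8.59, 72.6, 37.5, 30.9 and 15.2 CPM in stressed larvae (log2 fold change -2.50, SE 0.58, edgeR adjusted p = 0.276; DESeq2 adjusted p = 0.0167). Every stressed larva lay below every basal one, and among the stressed larvae 1 and 5, those highest for fosab, had the least fkbp5. per1a, a period clock gene that also answers to glucocorticoids, stood at 2.57, 6.29, 3.39 and 3.87 CPM in basal and 2.201, 1.900, 1.66, 1.54 and 1.78 CPM in stressed larvae (log2 fold change -1.13, SE 0.27, edgeR adjusted p = 0.262; DESeq2 adjusted p = 0.0507). Its groups were separate too, with basal 2 the highest. pck1, the cytosolic enzyme that commits carbon to gluconeogenesis, stood at 575, 738, 605 and 727 CPM and 185, 626, 369, 235 and 283 CPM (log2 fold change -0.96, SE 0.37, edgeR adjusted p = 0.538). Stressed 2 lay within the basal range and the other stressed larvae below it. klf9, a glucocorticoid-induced Krüppel-like factor, had 124, 147, 109.7 and 216 CPM in basal and 33.4, 143, 94.05, 77.1 and 57.3 CPM in stressed larvae (log2 fold change -0.88, SE 0.42, edgeR adjusted p = 0.676). In pck1, klf9 and fkbp5 alike, stressed 2 was the highest and stressed 1 the lowest stressed larva.

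Other targets lay closer to 0. sgk1, a kinase of ion transport, had a log2 fold change of -0.21 (SE 0.30). tsc22d3, an anti-inflammatory target, had a log2 fold change of 0.02 (SE 0.66), with basal 4 at 6.38 CPM and stressed 5 at 3.30 CPM while all other larvae had 25.8 CPM or more. per1b, the second period paralog, had a log2 fold change of 0.04 (SE 0.11). sgk1 and tsc22d3 have numbered copies in the table, which makes their counts uncertain. Of the 17 stress-axis genes 1 (5.88%) had an unadjusted p below 0.05 upward and 1 (5.88%) downward, beside 3.36% and 4.09% of all genes. Without basal 1 and 2 the counts were 0 and 1. The downward one with all larvae was hsd11b2, whose enzyme inactivates cortisol, at 33.3, 44.1, 28.2 and 49.1 CPM in basal and 20.5, 32.3, 18.9, 23.8 and 17.1 CPM in stressed larvae (log2 fold change -0.78, SE 0.25, edgeR adjusted p = 0.442). Stressed 2 alone reached into the basal range. crhb, for corticotropin-releasing hormone, had a log2 fold change of 0.14 (SE 0.14) and pomca, for proopiomelanocortin, one of 0.27 (SE 0.26), with overlapping groups. Of 33 clock genes 2 (6.06%) were higher and 2 (6.06%) lower at an unadjusted p below 0.05, and 1 and 2 without basal 1 and 2. The lower ones with all larvae were per1a and nr1d2a, a Rev-erb repressor of the clock, with 96.02, 220.1, 123 and 197 CPM in basal and 65.2, 99.5, 99.5, 76.7 and 77.2 CPM in stressed larvae (log2 fold change -0.93, SE 0.26). In nr1d2a basal 1 lay within the stressed range.

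Enterocyte genes stood lower in stressed larvae than in basal 2, 3 and 4. Of 41 enterocyte genes 34 were negative and 12 (29.3%) had an unadjusted p below 0.05 with stressed larvae lower, beside 4.09% of all genes, and none with stressed larvae higher (median -0.28). Leaving out basal 1 and 2 gave 10 lower and a median of -0.27. The list stood at -0.21, 0.18, 0.35 and 0.21 in basal 1 to 4 and at -0.04, -0.12, -0.01, -0.16 and -0.22 in stressed 1 to 5, in mean centred log2 CPM. Basal 1 thus lay below all stressed larvae except stressed 5. slc6a19a.1 encodes the brush-border transporter of neutral amino acids and stood at 49.5, 104, 68.2 and 74.2 CPM in basal and 29.3, 48.3, 33.9, 14.3 and 29.5 CPM in stressed larvae (log2 fold change -1.24, SE 0.30, edgeR adjusted p = 0.301; DESeq2 adjusted p = 0.0167). The groups were separate, although basal 1 at 49.5 CPM and stressed 2 at 48.3 CPM almost met. Villin, the actin bundler of microvilli encoded by vil1, stood at 289.7, 309.9, 328 and 307 CPM in basal and 244, 142, 254, 183 and 244 CPM in stressed larvae (log2 fold change -0.53, SE 0.17, edgeR adjusted p = 0.435). apoa4b.2, an apolipoprotein of chylomicrons, had a log2 fold change of -0.91 (SE 0.29), with basal 2 within the stressed range. Whether other copies of the apoa4b and slc6a19a clusters share reads with these rows is uncertain.

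Outside the list, DESeq2 called several transporters and surface enzymes lower. slc6a14, a broad-range amino acid transporter, stood at 19.4, 5.33, 9.69 and 6.24 CPM in basal and 3.22, 3.88, 3.16, 2.28 and 2.47 CPM in stressed larvae (log2 fold change -1.76, SE 0.41, edgeR adjusted p = 0.276; DESeq2 adjusted p = 0.0167). ace, for angiotensin-converting enzyme, ranged over 67.6 to 78.8 and 49.2 to 55.1 CPM (log2 fold change -0.48, SE 0.11; DESeq2 adjusted p = 0.0422). entpd8, an ectonucleotidase gene, ranged over 30.5 to 37.4 and 12.8 to 26.6 CPM (log2 fold change -0.82, SE 0.19; DESeq2 adjusted p = 0.0271). ace and entpd8 were named after their values were seen. All of these had separate groups. The exocrine pancreas list differed by larva more than by group: basal 2 stood at -2 and the other basal larvae at 0.28, 0.63 and 0.64, against -0.46 to 0.37 in the stressed larvae, and 0 of 29 genes were higher and 0 lower. In a fit without basal 1 and 2, 13 of the list were lower at an unadjusted p below 0.05, beside 2.684% of all genes.

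Liver lists were lower by less. Of 32 hepatocyte genes 5 (15.6%) and of 40 genes for acute phase and secreted liver proteins 7 (17.5%) had an unadjusted p below 0.05 with stressed larvae lower, and none with stressed larvae higher (medians -0.20 and -0.25). Over all genes 4.09% were lower. Without basal 1 and 2 the counts were 1 and 4, beside 2.684% of all genes, with medians of -0.14 and -0.05. fah, the last enzyme of tyrosine breakdown, had a log2 fold change of -0.35 (SE 0.12) and gnmt, a methyltransferase that consumes methyl donors, one of -0.36 (SE 0.12). The lipoprotein genes apoea and apobb.1 had log2 ratios of -0.90 (SE 0.30) and -0.62 (SE 0.21), with basal 2 among the stressed values for both. Of 38 complement genes 3 (7.9%) were lower and 0 higher at an unadjusted p below 0.05, beside 4.09% and 3.36% of all genes. Their median of -0.12 turned to 0.42 without basal 1 and 2 (1 lower, 0 higher). The terminal complement genes c7a and c9 had log2 ratios of 0.12 (SE 0.18) and -0.13 (SE 0.38). Both changed sign under at least 1 alternative setting.

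Heart, blood, vessel and neutrophil lists stood lower in stressed larvae, chiefly against basal 1 and 2. Of 30 heart genes 14 (46.7%) had an unadjusted p below 0.05 with stressed larvae lower (median -0.40), of 31 erythrocyte and heme genes 9 (29%, median -0.41), of 21 neutrophil and mast cell genes 5 (23.8%, median -0.36) and of 30 endothelial genes 5 (16.7%, median -0.15). None of these lists had a member higher at that threshold. Over all genes 4.09% were lower. With basal 1 and 2 left out the counts were 0, 0, 2 and 0, and the medians -0.12, -0.01, 0.02 and -0.05. The share of all genes lower also fell, to 2.684%, with 2 basal larvae left, so the counts are not like for like. The heart list stood at 0.64, 0.47, -0.10 and -0.02 in basal 1 to 4 and at -0.23, 0.18, -0.02, -0.77 and -0.15 in stressed 1 to 5. The erythrocyte list stood at 0.51, 0.56, -0.10 and -0.21 and at -0.15, -0.51, -0.13, 0.12 and -0.09.

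nppb, the natriuretic peptide B gene of stretched heart muscle, differed most between single basal larvae. It stood at 23.8, 4.11, 1.21 and 1.02 CPM in basal and 0.966, 1.24, 0.789, 0.515 and 1.78 CPM in stressed larvae (log2 fold change -2.81, SE 0.76, edgeR adjusted p = 0.383). DESeq2 called it lower (adjusted p = 0.0391), yet only basal 1 and 2 were above the stressed range. pln, for phospholamban, the brake of the cardiac calcium pump, ranged over 11.5 to 21.1 and 5.07 to 13.7 CPM (log2 fold change -0.76, SE 0.22). vmhc, for ventricular myosin heavy chain, had a log2 fold change of -0.23 (SE 0.09). tfr1a, the transferrin receptor gene of red cell precursors, stood at 62.3, 70.5, 33.7 and 34.05 CPM in basal and 19.9, 21.8, 23.6, 32.4 and 26.6 CPM in stressed larvae (log2 fold change -1.02, SE 0.28, edgeR adjusted p = 0.39). All stressed larvae were below all basal ones, but basal 3 and 4 exceeded stressed 4 by under 2 CPM. The erythroid factor klf1, the globin gene hbae1 and the heme synthesis gene hmbsb had log2 ratios of -0.86 (SE 0.28), -0.91 (SE 0.31) and -0.76 (SE 0.26), each with basal 1 and 2 above all other larvae. lyve1a, of lymphatic and venous endothelium, and kdr, a VEGF receptor gene, had log2 ratios of -1.29 (SE 0.41) and -0.47 (SE 0.17). csf3r, the receptor gene for granulocyte colony-stimulating factor, and cebpa, a myeloid and liver factor, had log2 ratios of -0.91 (SE 0.31) and -0.37 (SE 0.13).

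**Figure D4:**
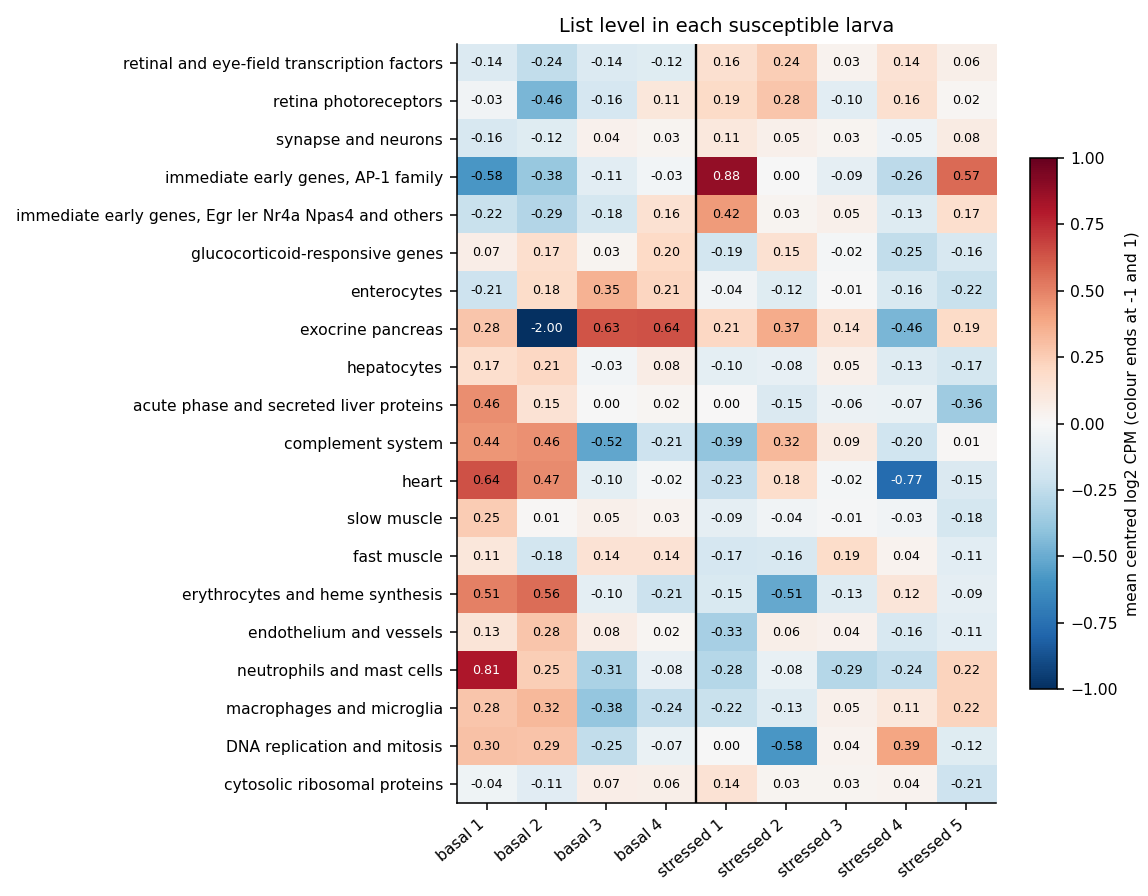
Level of 20 gene lists in each susceptible larva, as the mean over tested members of log2 CPM centred on the 9 larvae (colour and printed value); the line parts basal from stressed larvae. Retinal factors are negative in all 4 basal and positive in all 5 stressed larvae, AP-1 genes are highest in stressed 1 and 5, and heart and erythrocyte genes are highest in basal 1 and 2.

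Some slow muscle genes stood lower in stressed larvae, while both defining markers averaged about the same in the groups. Of 25 genes 16 were negative and 9 positive (median -0.16). Of them 7 (28%) had an unadjusted p below 0.05 with stressed larvae lower, beside 4.09% of all genes, and 1 with stressed larvae higher. Without basal 1 and 2 the counts were 4 and 1. The median lay between -0.19 and -0.03 when single larvae were left out. mybpc1, the slow form of myosin-binding protein C, stood at 52.3, 46.7, 42.2 and 42.1 CPM in basal and 30.8, 26.9, 40.5, 34.1 and 35.8 CPM in stressed larvae (log2 fold change -0.45, SE 0.10, edgeR adjusted p = 0.25; DESeq2 adjusted p = 0.0211). The groups were separate, with stressed 3 closest to the basal range. tnnt1, for slow troponin T, stood at 23.1, 15.6, 22.3 and 16.1 CPM and 12.8, 14.4, 13.02, 13.7 and 14.3 CPM (log2 fold change -0.49, SE 0.15, edgeR adjusted p = 0.4), with a narrow stressed range. atp2a2a, the calcium pump of slow and heart muscle, had a log2 fold change of -0.39 (SE 0.13) and casq2, its calcium-storing partner in the same fibres, one of -0.38 (SE 0.13). The slow fibre markers smyhc1 and myl10 averaged 18.1 and 455 CPM in basal and 18.6 and 472 CPM in stressed larvae. Among 52 fast muscle genes 5 (9.62%) were lower at that threshold (median -0.05), and 8 without basal 1 and 2 (median -0.11). tnni2a.1, a fast troponin I gene, was called lower by DESeq2 (67.5, 55.6, 71.4 and 66.5 CPM in basal and 44.7, 61.2, 46.2, 39.9 and 44.7 CPM in stressed larvae; DESeq2 adjusted p = 0.0461), and stressed 2 overlapped the basal range. myhb, a fast myosin heavy chain gene, ranged over 76.6 to 100.4 and 25.00 to 73.9 CPM (log2 fold change -0.82, SE 0.27), and ldb3a, of the Z-disc, had a log2 fold change of -0.70 (SE 0.20). Reads of the closely related tnni2a and myosin heavy chain copies may be split among rows.

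Carbohydrate genes lay on both sides. Of 27 genes of gluconeogenesis and glycogen 5 (18.5%) had an unadjusted p below 0.05 with stressed larvae lower, beside 4.09% of all genes. With stressed larvae higher there was 1 (median -0.07). Without basal 1 and 2 the counts were 2 and 0, and the median turned to 0.03. The lower ones with all larvae included pck1, counted above among the glucocorticoid targets too. The lower ones held enzymes from several steps of the pathway. pcxb, for pyruvate carboxylase, ranged over 60.99 to 68.04 CPM in basal and 38.6 to 59.5 CPM in stressed larvae (log2 fold change -0.36, SE 0.10, edgeR adjusted p = 0.363). pck2, the mitochondrial counterpart of pck1, ranged over 11.97 to 21.7 and 7.02 to 9.31 CPM (log2 fold change -1.01, SE 0.32); a numbered copy makes its count uncertain. fbp2, for fructose-bisphosphatase, stood at 162, 54.6, 29.7 and 66.01 CPM in basal and 17.9, 38.1, 10.8, 21.5 and 35.6 CPM in stressed larvae (log2 fold change -1.65, SE 0.47), with basal 1 far above the rest. Of 42 glycolytic genes 4 (9.52%) were higher and 5 (11.9%) lower (median -0.02), beside 3.36% and 4.09% of all genes. Without basal 1 and 2 the counts were 2 and 3, and the median turned to 0.03. slc2a1b, a GLUT1 glucose transporter gene, ranged over 72.2 to 89.2 and 48.8 to 68.8 CPM (log2 fold change -0.40, SE 0.11). pfkfb1, the bifunctional enzyme that sets fructose 2,6-bisphosphate, stood at 15.8, 14.5, 15.2 and 19.4 CPM in basal and 11.8, 14.1, 10.9, 11.4 and 13.9 CPM in stressed larvae (log2 fold change -0.38, SE 0.11), whereas pfkpb, a phosphofructokinase gene with a numbered copy, had a log2 fold change of 0.75 (SE 0.23).

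Antioxidant genes leaned downward, with 6 of 40 (15%) lower and 0 higher at an unadjusted p below 0.05 (median -0.15). Over all genes 4.09% were lower and 3.36% higher. Without basal 1 and 2 the list had 2 lower and 1 higher (median -0.07). gstp2, a glutathione S-transferase gene, stood at 20.2, 16.5, 15.5 and 15.3 CPM in basal and 4.99, 13.2, 7.02, 5.59 and 5.08 CPM in stressed larvae (log2 fold change -1.23, SE 0.33, edgeR adjusted p = 0.361; DESeq2 adjusted p = 0.0493). Stressed 2 was the highest stressed larva by a wide margin and still below all basal ones. nfe2l2a, the Nrf2 factor of the antioxidant response, differed little but without overlap (176 to 207 against 160.1 to 168 CPM, log2 fold change -0.21, SE 0.07). Cholesterol synthesis genes were negative in 22 of 24 members with 2 (8.33%) lower at that threshold (median -0.23), and 1 without basal 1 and 2 (median -0.25). Of kidney and ionocyte genes 7 of 41 (17.1%) were lower, beside 4.09% of all genes (median -0.13). Without basal 1 and 2 there was 1 (median -0.09), beside 2.684% of all genes. Among the 7 was atp1b1a, a subunit of the sodium pump, with a log2 fold change of -0.24 (SE 0.09). Ribosomal proteins (65 genes), nuclear-encoded respiratory chain subunits (60), replication and mitosis (57) and autophagy and lysosome genes (47) had 0 members at an unadjusted p below 0.05 in either direction, and 1 respiratory chain gene was lower without basal 1 and 2. Their medians were 0.01, -0.05, -0.10 and -0.0078. Negative fold changes numbered 16 for ribosomal proteins, 43 for the respiratory chain, 45 for replication and mitosis and 26 for autophagy. The replication median turned to 0.15 and the ribosomal one to -0.05 without basal 1 and 2. Chaperone lists had 1 of 30 cytosolic (3.33%) and 1 of 29 endoplasmic reticulum genes (3.45%) higher, and 2 (6.67%) and 1 (3.45%) lower. Without basal 1 and 2 these were 3 and 0 higher and 1 and 1 lower. Cytokine, chemokine and NF-kB genes had 4 of 53 higher (7.55%) and 6 lower (11.3%), beside 3.36% and 4.09% of all genes. Without basal 1 and 2 the balance turned to 8 higher and 1 lower, beside 2.506% and 2.684% of all genes.

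Several signalling genes on none of these lists were among those with the smallest p, and DESeq2 called them. pik3r3a, a regulatory subunit of phosphoinositide 3-kinase, stood at 33.2, 26.4, 27.1 and 30.1 CPM in basal and 12.99, 16.9, 11.2, 11.7 and 10.6 CPM in stressed larvae (log2 fold change -1.20, SE 0.26, edgeR adjusted p = 0.25; DESeq2 adjusted p = 0.00627). The groups were far apart, and edgeR called the gene in a fit of the 9 susceptible larvae alone (adjusted p = 0.043). sgpl1, whose lyase breaks down sphingosine 1-phosphate, ranged over 225 to 293 and 149.9 to 198 CPM (log2 fold change -0.55, SE 0.12, edgeR adjusted p = 0.25; DESeq2 adjusted p = 0.0142). inhbaa, for the activin beta A subunit, ranged over 8.297 to 13.7 and 4.26 to 7.42 CPM (log2 fold change -0.77, SE 0.16, edgeR adjusted p = 0.25). tsku, for the secreted signalling modulator tsukushi, ranged over 40.96 to 48.9 and 30.98 to 37.2 CPM (log2 fold change -0.44, SE 0.09, edgeR adjusted p = 0.25), and cx28.9, a connexin gene, over 38.1 to 50.6 and 21.9 to 31.8 CPM (log2 fold change -0.71, SE 0.15). In the other direction, the serine/threonine kinase gene pim2 stood at 26.6, 18.4, 13.8 and 12.8 CPM in basal and 33.1, 27.1, 29.4, 33.7 and 28.3 CPM in stressed larvae (log2 fold change 0.74, SE 0.17, edgeR adjusted p = 0.25; DESeq2 adjusted p = 0.0167). Basal 1 nearly reached the stressed range, and without it edgeR called the gene (log2 fold change 1.01, adjusted p = 0.0151). Leaving out the basal larva closest to the stressed ones widens the gap by itself, so that call is no separate support. zdhhc8a, a palmitoyltransferase gene, ranged over 15.2 to 21.2 and 26.5 to 34.2 CPM (log2 fold change 0.59, SE 0.11, edgeR adjusted p = 0.216; DESeq2 adjusted p = 0.00278). Stressed 2 lay apart from the other stressed larvae in a further set. scpp5, a gene of tooth mineralization, stood at 64.1, 28.4, 32.9 and 34.6 CPM in basal and 3.597, 24.7, 4.58, 1.103 and 4.78 CPM in stressed larvae, and apnl, an actinoporin-like gene, at 7.72, 8.82, 8.11 and 5.63 CPM and 1.99, 5.66, 1.499, 1.03 and 1.56 CPM. With all larvae their log2 fold changes were -2.31 (edgeR adjusted p = 0.39) and -1.63 (edgeR adjusted p = 0.254). Without stressed 2 edgeR called both lower, at -3.49 (adjusted p = 0.0112) and -2.29 (adjusted p = 0.00109). Stressed 2 was the stressed larva closest to the basal ones, so leaving it out widens the gap by itself. Those calls are no separate support.

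The authors' deposited table of the same comparison lists 49 genes at an adjusted p below 0.05, 22 higher and 27 lower in stressed larvae. Of these 49, 46 were also called by DESeq2 as run here, and 43 had groups without overlap. Both genes of the authors' deposited table that edgeR's filter removed, since too few larvae had reads, are listed there with very large fold changes. hp, the haptoglobin gene, has a deposited log2 fold change of 22.4 in the authors' deposited table. It had 317 reads in stressed 2, 13 in stressed 3 and 0 in the other 7 larvae. tagln2_1, a numbered copy, is at 15.5 in the authors' deposited table, with 1 read each in stressed 4 and 5 and 0 in the others. Both were named after their values were seen.

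The test of the difference between the susceptible and the resilient response called 31 of 22038 genes (0.141%), 15 with the susceptible response above the resilient one and 16 below it. In the same fit 1399 genes (6.35%) passed the test in resilient larvae. Of the 31 genes 28 were also called in resilient larvae, and in 28 the resilient change was the larger. Of the 31 genes 13 had an unadjusted p below 0.05 in susceptible larvae, beside 7.45% of all genes. The test that chose the 31 genes contains both responses, so these counts are no separate result. The count of 31 fell to 5 without susceptible basal 3 and reached 132 without resilient basal 2, so the count depended on single larvae. It was also larger without susceptible basal 2 (119), susceptible stressed 2 (49), resilient stressed 1 (72) or resilient stressed 5 (76). Counts of 8 to 16 came without susceptible basal 1 (9), susceptible stressed 3 (10), 4 (9) or 5 (16), resilient basal 1 (9) or 4 (8), or resilient stressed 2 (11), 3 (12) or 4 (14).

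The responses had opposite signs in all but 2 of the 31 genes, with the susceptible value negative in 16 and positive in 13. The test that chose these genes favours opposite signs, so these counts are no separate result. mybpc1 had a log2 fold change of -0.45 (SE 0.10) in susceptible and 0.32 (SE 0.10) in resilient larvae, a difference of -0.77 (SE 0.14, edgeR adjusted p = 0.0418). For tnnt1 the values were -0.49 and 0.69, a difference of -1.18 (SE 0.21, edgeR adjusted p = 0.0418), and for pfkfb1 -0.38 and 0.83, a difference of -1.22 (SE 0.16, edgeR adjusted p = 0.00666). In mybpc1, upk1a and ftr63 the susceptible change was the larger. upk1a, a uroplakin gene of epithelial surfaces, stood at 0.447, 1.14, 1.09 and 0.882 CPM in basal and 0.429, 0.413, 0.158, 0.221 and 0.1302 CPM in stressed susceptible larvae. Its means of 0.889 and 0.270 CPM lay below the 1 CPM set for genes named by rule. Few reads thus carry its difference of -2.80 (SE 0.53, edgeR adjusted p = 0.0459). ftr63, a finTRIM family gene, stood at 1.96, 2.79, 3.39 and 2.71 CPM and 4.83, 5.29, 3.94, 4.56 and 3.65 CPM, with a difference of 1.34 (SE 0.25, edgeR adjusted p = 0.0459). Most of the remainder were close to 0 in susceptible larvae. c7a stood at 31.2, 35.7, 23.9 and 22.5 CPM in basal and 23.9, 42.7, 30.2, 30.8 and 26.4 CPM in stressed susceptible larvae, where the groups overlapped. Its log2 fold change in resilient larvae was -1.64 (SE 0.19), and the responses differed by 1.76 (SE 0.26, edgeR adjusted p = 0.0127). c5ar1, the receptor gene for the complement fragment C5a, had a log2 fold change of 0.44 (SE 0.22) in susceptible and -1.40 (SE 0.23) in resilient larvae. The difference was 1.84 (SE 0.32, edgeR adjusted p = 0.0404). il6st, the receptor subunit gp130 of interleukin-6-type cytokines, stat3, which carries its signal, and socs3b, which damps it, had log2 ratios of 0.04 (SE 0.07), -0.02 (SE 0.08) and 0.25 (SE 0.12). In resilient larvae these were -0.66, -0.65 and -0.76, giving differences of 0.70, 0.63 and 1.01 (edgeR adjusted p = 0.0127, 0.0459 and 0.0217). timp2b, a metalloprotease inhibitor gene, hspb1, a small heat shock gene, and dysf, for the membrane repair protein dysferlin, had log2 ratios of 0.15, -0.01 and 0.24. Resilient larvae had -1.735, -1.50 and -1.06, with differences of 1.88, 1.49 and 1.299 (edgeR adjusted p = 0.0154, 0.0459 and 0.0127). c5ar1, il6st, stat3, socs3b, timp2b, hspb1, dysf, upk1a and ftr63 were named after their values were seen.

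**Figure D5:**
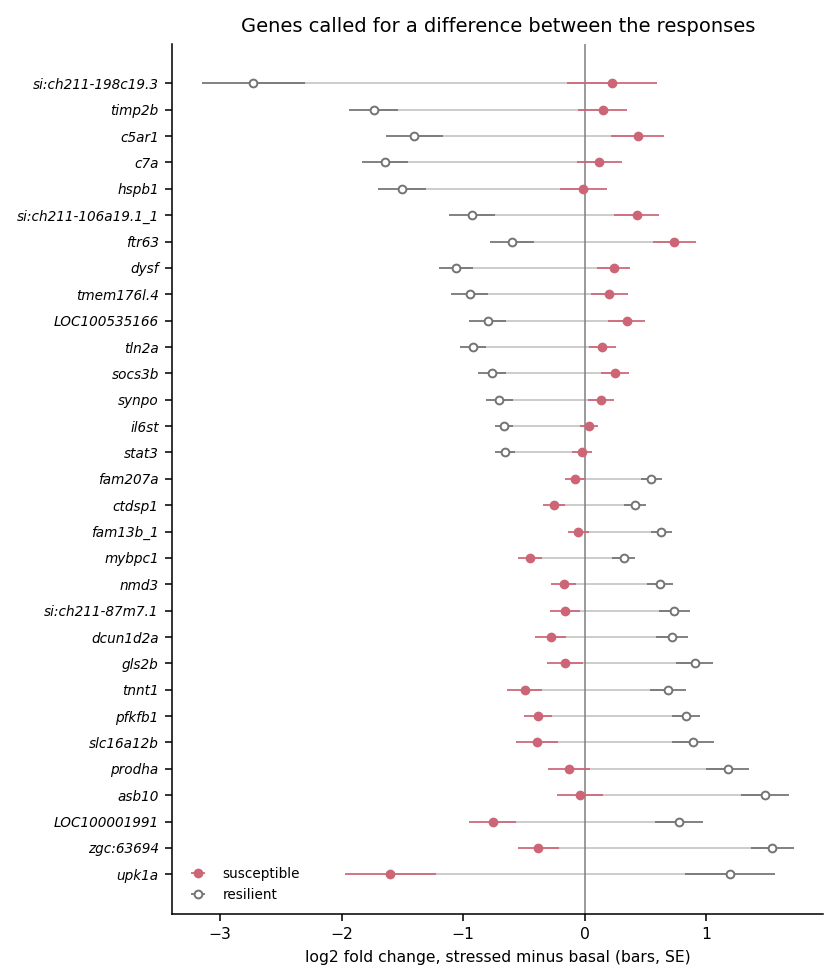
Log2 fold changes (horizontal axis, stressed minus basal, bars SE) in susceptible (red) and resilient larvae (open) for the 31 genes called for a difference between the responses. In 28 of 31 the resilient value lies farther from 0; the genes were chosen by a test that contains both responses, so this count is no separate result.

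Immediate early and retinal genes were not called for a difference. egr1 had a log2 fold change of 0.72 (SE 0.18) in susceptible and 1.18 (SE 0.18) in resilient larvae (difference -0.45, SE 0.25, edgeR adjusted p = 0.468), and ier2a log2 ratios of 0.93 and 1.45 (difference -0.52, SE 0.32, edgeR adjusted p = 0.524). rx1 had log2 ratios of 0.71 and 0.48 (difference 0.23, SE 0.18, edgeR adjusted p = 0.638), and fkbp5 log2 ratios of -2.50 and -1.65 (difference -0.84, SE 0.80, edgeR adjusted p = 0.714). A p above the threshold does not show that the responses were alike. In resilient larvae edgeR called egr1, ier2a, rx1 and fosab higher (adjusted p = 0.00281, 0.004, 0.0331 and 0.0254). The retinal factor list had a median of 0.21 in resilient larvae, against 0.29 in susceptible ones. For other immediate early genes these were 0.18 and 0.20. The AP-1 median was -0.11 in resilient larvae, against 0.49 in susceptible ones, and the photoreceptor median 0.04 against 0.25. Of these lists 0 members were called for a difference, and the medians themselves were not tested. Genes called in resilient larvae, which use other animals, were then read in susceptible ones. Of 608 called higher in resilient larvae 332 (54.6%) were also positive in susceptible larvae, beside 49.0% of all genes, with a median of 0.01 against 0.47 in resilient larvae. Of 791 called lower 516 (65.2%) were negative, beside 51.0% of all genes, with a median of -0.05 against -0.66. Together 848 of 1399 (60.6%) had the same sign in both archetypes. Without susceptible basal 1 and 2 that share was 41.7%, without basal 2 alone 48.2% and without basal 1 alone 57.4%. The share thus depended more on basal 2 than on basal 1.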

How the data were processed

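RNA of 18 whole larvae was sequenced, 1 library per larva. The authors deposited raw read counts per gene symbol, per the file headers, and cutadapt, STAR, DESeq2 and danRer11 are named without versions in the submitters' processing notes; no source used here names the gene counter or the strand setting, and overlapping and antisense genes are uncertain for that reason. The same table holds the authors' log2 fold changes and p-values per comparison, per the file headers; their sign was turned to stressed minus basal. Rows named as dates (15 rows, 0.0613 to 0.0698% of reads) were dropped.

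edgeR 4.0.16 (R 4.3.3, TMM, filterByExpr, robust quasi-likelihood F test) was fitted on the 4 group means of all 18 larvae, with Benjamini-Hochberg adjustment over 22038 genes and a threshold of 0.05. limma 3.58.1 (voom) and DESeq2 1.42.0 were alternatives. Adjusted p-values that DESeq2 left as NA stayed NA. The difference of responses came from the same fit. Gene lists are described by counts and medians, without a list test; members and lists were chosen with earlier results of these data known. Of 2012 list entries 1793 matched a row. Genes named are those with a mean of at least 1 CPM that had the smallest p in each direction or in their list, the largest changes without overlap, or a call by an alternative, plus a fixed panel; others are marked in the text. Susceptible basal and stressed larvae that share a number did not deviate together (correlations of -0.109 to -0.0128), so the numbers were taken as names. Resilient larvae were not examined in this way. All within-group pairs of larvae differed beyond counting noise (chi-square per degree of freedom of at least 6.66). Nothing says that the larvae came from separate clutches, so p-values measure the spread between these larvae. A few genes of the lists are not reported here by name.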

Additional observations from a re-analysis of the deposited data

Results flagged for a closer look

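Of 194 gene and group combinations examined for a larva far from its group, 11 were marked, where chance marks about 1 in 20. The number marked was close to that chance share, so a mark alone does not show that a larva was unusual. In basal larvae, basal 1 was the far larva for nppb (23.82 CPM, others 1.018 to 4.105), casq2 (146.2 CPM, others 94.43 to 102.3) and slc2a1b (89.25 CPM, others 72.15 to 74.41), all high, and for per1b (34.17 CPM, others 46.37 to 48.84), low. Basal 4 was high for crx (55.15 CPM, others 41.22 to 42.98). In stressed larvae, stressed 2 was high for gabrr1 (15.2 CPM, others 7.771 to 9.705), gstp2 (13.22 CPM, others 4.992 to 7.022), scpp5 (24.74 CPM, others 1.103 to 4.775) and apnl (5.659 CPM, others 1.029 to 1.986). Stressed 1 was high for pfkpb (11.92 CPM, others 6.425 to 7.972). Stressed 5 was low for calb2b (85.39 CPM, others 107.0 to 115.3).

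In 13 of the genes named, the susceptible response differed from the resilient one by edgeR's test of the difference, beside 31 of all 22038 genes (0.141%). Most of the 13 (c5ar1, il6st, stat3, socs3b, timp2b, hspb1, dysf, upk1a and ftr63) were named after their values were seen. The count of 13 is therefore no separate result. The susceptible response was lower, as a log2 difference, for mybpc1 (-0.77), tnnt1 (-1.18), pfkfb1 (-1.22) and, at a mean below 1 CPM, upk1a (-2.80). It was higher for c7a (1.76), c5ar1 (1.84), il6st (0.70), stat3 (0.63), socs3b (1.01), timp2b (1.88), hspb1 (1.49), dysf (1.299) and ftr63 (1.34). These genes had negative log2 fold changes in resilient larvae, in that order -1.64, -1.40, -0.66, -0.65, -0.76, -1.735, -1.50, -1.06 and -0.60.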

How the results depend on the processing

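The count of 0 genes called between stressed and basal susceptible larvae was also 0 with limma voom, RLE or upper-quartile scaling and other filters. DESeq2 called 46. It was 1 with the 9 susceptible larvae alone (pik3r3a) and 1 without basal 1 and 2 (pim2), and leaving out 1 larva at a time gave 0 to 13. The 31 genes called for a difference became 396 with DESeq2 and 76 with voom, and 5 to 132 leaving out 1 larva; a fit of susceptible larvae alone gives no such test. With the replicate block the difference count was 8 by bracket number and 14 by title number, and the susceptible count was 0. The numbers were taken as names. Same-numbered susceptible larvae did not deviate together, but that does not show whether the numbers stand for a shared clutch or batch. Genes without overlap numbered 2591 (11.76%) without basal 1 and 2, beside 601 (2.73%) with all larvae. This comparison with 2 basal larvae was chosen after seeing the data. Smaller groups separate by chance more often, so these counts cannot be set against each other. Of the genes called in resilient larvae the share of the same sign was 41.74% without basal 1 and 2 and 48.18 to 65.9% leaving out 1 larva. The cause of the other shifts was not tested. Of 2715 gene values under an alternative 2680 kept their side of the threshold and 35 passed it. Of the 97 genes named, none of them called at first, 10 changed sign under at least 1 alternative. Groups of 4 and 5 larvae, 2 of them apart from the rest, limit the precision.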
